A study of Mus musculus with 10 samples.

Results

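Alternative exons whose length is not a multiple of 3 change the reading frame of the messenger RNA when they are included or left out. The exons described here were longer than 27 nt, not a multiple of 3 in length, and alternatively spliced in control cells of the mouse neuroblastoma line Neuro-2a (N2A). The rule kept exon events with a mean percent spliced in (PSI, the percentage of transcripts that hold the exon) from 10 to 90 in the siNT samples. It also required at least 10 reads for or against the exon in every one of the 6 N2A libraries. It selected 2135 of 192593 exon events, in 1552 named genes, with 20 members carrying no gene name.

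The N2A cells had received 40 nM of either a non-targeting siRNA pool (siNT, 3 samples) or a pool against Qk (siQk, 3 samples), and polyadenylated RNA was taken 72 hours later. The labels call the samples biological replicates of this cell line without naming separate days, so the p-values measure the spread between these samples. A second experiment used neurons differentiated from mouse embryonic stem cells, at 7 days in vitro, with or without 100 µM of the translation inhibitor cycloheximide for 12 hours (2 samples each). Only exons of up to 30 nt have values there.

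Qk encodes Quaking, an RNA-binding protein of the STAR family that binds introns near alternative exons and affects whether they are included. An exon that shifts the frame usually brings a premature stop codon into 1 of the 2 forms, and a stop codon well upstream of the last exon junction is a known trigger of nonsense-mediated decay. Some such exons form mutually exclusive pairs, in which either exon restores the frame that the lack of both would break. Others are so-called poison exons, whose inclusion brings in the stop.

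The sequences that follow are RNA-sense exon sequences of GENCODE M21 transcripts (GRCm38, the assembly called mm10), 5′ to 3′. The first set shows pairs of equal length used in place of each other, since 3 of the called genes hold one. Capitals mark the letters that differ from the other exon of the pair. The dynamin gene Dnm2 has 2 coding exons of 139 nt on the plus strand, at chr9:21478899-21479037 and chr9:21480407-21480545, with 95 identical positions (68.3%). The tropomyosin gene Tpm1 has 2 coding exons of 76 nt on the minus strand, at chr9:67032466-67032541 and chr9:67031951-67032026, with 43 identical positions (56.6%). The pyruvate kinase gene Pkm has 2 of 167 nt on the plus strand, at chr9:59675029-59675195 and chr9:59675568-59675734, with 103 identical positions (61.7%).
Dnm2 first exon of the pair: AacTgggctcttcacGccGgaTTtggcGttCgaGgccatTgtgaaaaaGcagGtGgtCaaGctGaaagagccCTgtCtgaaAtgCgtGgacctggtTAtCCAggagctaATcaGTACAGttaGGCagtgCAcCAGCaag
Dnm2 second exon of the pair: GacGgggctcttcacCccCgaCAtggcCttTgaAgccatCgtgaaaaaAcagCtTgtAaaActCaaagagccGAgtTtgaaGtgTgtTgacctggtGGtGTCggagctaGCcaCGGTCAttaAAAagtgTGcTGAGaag
Tpm1 first exon of the pair: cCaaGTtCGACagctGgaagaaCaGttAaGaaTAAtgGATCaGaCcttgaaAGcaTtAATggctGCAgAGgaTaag
Tpm1 second exon of the pair: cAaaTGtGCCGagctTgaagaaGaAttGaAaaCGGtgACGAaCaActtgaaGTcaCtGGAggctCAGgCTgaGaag
Pkm first exon of the pair: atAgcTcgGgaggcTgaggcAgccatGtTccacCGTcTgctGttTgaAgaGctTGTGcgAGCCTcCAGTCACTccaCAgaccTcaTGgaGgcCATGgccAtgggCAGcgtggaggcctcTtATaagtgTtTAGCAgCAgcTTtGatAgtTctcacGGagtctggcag
Pkm second exon of the pair: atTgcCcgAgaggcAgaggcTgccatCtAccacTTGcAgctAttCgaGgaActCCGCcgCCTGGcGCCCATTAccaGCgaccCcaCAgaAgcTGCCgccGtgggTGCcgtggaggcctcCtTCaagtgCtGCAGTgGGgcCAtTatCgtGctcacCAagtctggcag

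The second set shows exons whose inclusion brings a stop codon, from the exon's first base to the first in-frame stop, in capitals. Fkbp7 (116 nt exon, chr2:76667327-76667442) and Rab12 (190 nt, chr17:66504989-66505178) lie on the minus strand, and Golga4 (65 nt, chr9:118579542-118579606) on the plus strand. The frame was read from an annotated coding transcript that joins the neighbouring exons directly.
Fkbp7 exon start to stop codon: gtgatgctTGA
Rab12 exon start to stop codon: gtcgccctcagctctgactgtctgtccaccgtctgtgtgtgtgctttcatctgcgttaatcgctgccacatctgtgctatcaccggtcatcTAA
Golga4 exon start to stop codon: ttcacctcacctcgcagtggcatcttcTGA

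The third set shows coding exons on the minus strand that changed and stand in no pair of equal length. They are the 29 nt exon of Strada (chr11:106180955-106180983), the 70 nt exon of Tarbp1 (chr8:126470019-126470088) and the 53 nt exon of Adgrl2 (chr3:148820973-148821025). In these no letter is marked.
Strada coding exon: agcagcctccgggtgacactcggagaaaa
Tarbp1 coding exon: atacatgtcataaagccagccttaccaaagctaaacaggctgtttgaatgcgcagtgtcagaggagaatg
Adgrl2 coding exon: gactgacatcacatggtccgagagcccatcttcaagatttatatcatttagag

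Exon events held 37883497 to 78479832 reads per siNT sample and 26595944 to 80481173 per siQk sample, where a read can count for several events. The median member had 67 to 206 reads per sample. Reads of Qk exon events, scaled to CPM of all exon-event reads of a sample, fell from 85.4 ± 4.71 (SD, n = 3) in siNT to 11.2 ± 2.60 in siQk, 13.1% of the control (limma adjusted p = 0.000483). Of 13 neuron or neuroblast marker genes with exon events, 10 reached 1 CPM, among them Gap43, Stmn2 and Dbh, while Dcx, Nefl and Nefm did not. The summed level of that list was 1641 to 1703 CPM in siNT and 1659 to 1794 in siQk. In such bulk sums fewer cells of a type and less RNA per cell cannot be told apart. Summed glial markers stayed at 3.35 to 5.15 CPM over all 6 samples, and Aqp4, Mog and Sox10 were at 0. Summed fibroblast or vessel markers were 7.79 to 10.4 CPM in siNT and 13.2 to 16.1 in siQk, mostly Pecam1, and their part in the results was not tested.

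Member exons had a median length of 104 nt, with quartiles of 73 and 148 nt and a longest of 8104 nt. Their lengths left a remainder of 1 after division by 3 in 1082 and of 2 in 1053. Control PSI, which chose the members, was from 10 to 25 in 433 of them, from 25 to 75 in 798 and from 75 to 90 in 904. At the lower bound an 85 nt exon of Adgrl1 stood just inside (mean PSI 10.02) and a 124 nt exon of Srek1 just outside (9.99). At the upper bound a 98 nt exon of Kif24 was just outside (90.003). A 208 nt exon of 2610307P16Rik had 10 reads in its shallowest sample, and a 182 nt exon of Fbxo34 missed that minimum with 9.99 (reads in the table need not be whole). By length, a 28 nt exon of Dnajb2 was inside and a 26 nt exon of Ap1ar outside. The median flanking introns were 2.49 kb upstream and 2.73 kb downstream, close to the 2.39 and 2.81 kb of frame-keeping exons over 27 nt chosen by the same PSI and read rule.

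In the annotation, 978 members (45.8%) were wholly coding and 148 held a start or stop codon. Another 247 (11.6%) lay in 5′ untranslated regions, 105 only in transcripts annotated as decay targets and 135 only in other non-coding transcripts. For 422 the ends differed from those of an overlapping annotated exon, and 100 overlapped none. Coding members were mostly included in control cells (median PSI 79.9), whereas members in decay-target transcripts only (median 25.7) or in no annotated exon (median 20.9) were mostly left out. Of the 1914 frame-keeping exons chosen by the same rule, 1248 (65.2%) were coding, with a median PSI of 61.5. Their medians were low in the same classes, 22.6 in decay-target transcripts only and 17.6 in no annotated exon.

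**Figure D1:**
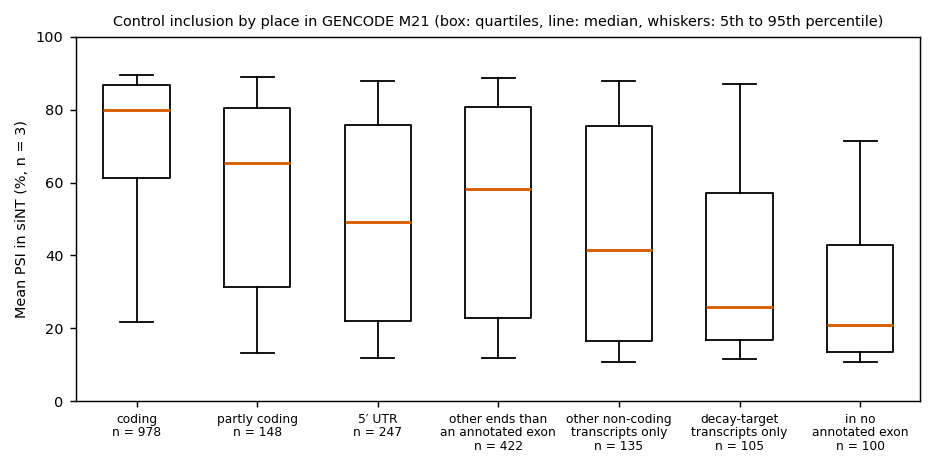
Mean PSI in siNT (%, vertical axis) of the 2135 frame-shifting longer exons by their place in GENCODE M21; boxes span the quartiles, lines are medians and whiskers reach the 5th and 95th percentiles. Coding exons have a median of 79.9, exons found in decay-target transcripts only 25.7, and exons in no annotated exon 20.9.

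The reading frame after skipping could be followed for 961 coding members. In 770 of these (80.1%) the form without the exon met a stop codon more than 50 nt upstream of its last exon junction, here called an early stop. Skipping gave an early stop in 3 of 1162 frame-keeping exons (0.258%) read the same way. For 183 further members only inclusion could be followed, from a coding transcript that lacks the exon; 142 of them (77.6%) gave an early stop, which lay inside the exon in 110. Control PSI differed between these groups: the median was 80.5 where skipping brings the early stop and 22.5 where inclusion does. The groups were set by whether an annotated coding transcript holds or lacks the exon, and control PSI chose the members. How far this alone gives the difference was not tested. Each reading changes 1 exon of 1 annotated transcript and leaves the others as they are, so it does not cover exons that are skipped together.

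Knockdown of Qk changed few of these exons. In a fit over all 12929 cassette exons tested, 152 passed adjusted p under 0.05 (limma, Benjamini-Hochberg) with a difference of 10 or more points of mean PSI, 1.18% of them. Among the 2135 members 21 passed (0.984%), a share near that background and below that of exons in the same PSI range, given next. Of these 12 rose (0.562%, against 0.75% of all exons tested) and 9 fell (0.422%, against 0.425%). Over the same PSI range 128 of 4257 exons of any length passed (3.01%). They included 82 of 1914 frame-keeping longer exons (4.28%; 2.56% up and 1.72% down) and 25 of 208 microexons of up to 27 nt (12.0%; 10.1% up and 1.92% down). This is a comparison of shares, whose difference was not tested. The count depended on single control samples: 12 members passed without siNT 1, 8 without siNT 2 and 10 without siNT 3, against 15 to 21 without a siQk sample. It was 2 (Adgrl2 and Cacnb1) with plain empirical Bayes shrinkage, and 13 when exons marked as having unbalanced junction reads were left out, which left only 12 of the 21 in the fit. With limma on PSI in place of log odds 23 members passed, but only 13 of the 21 were among them.

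**Figure D2:**
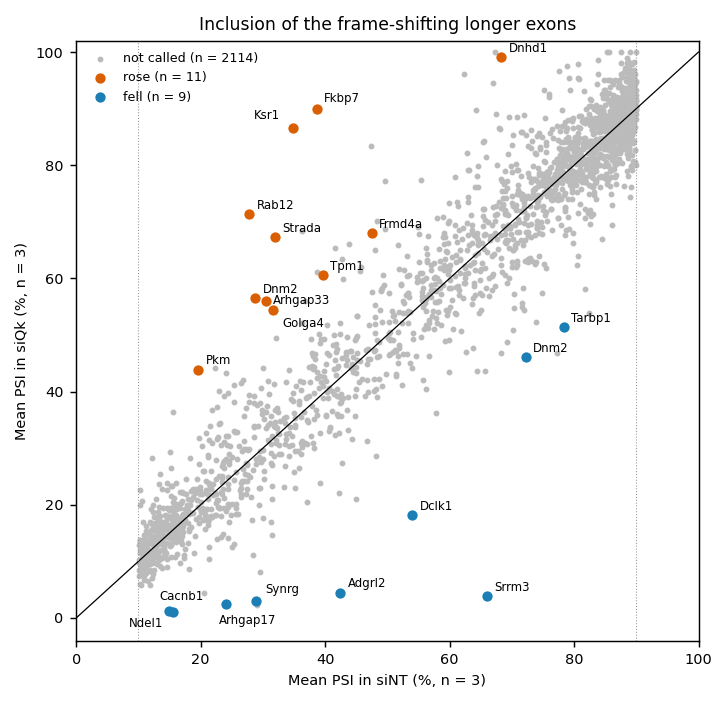
Mean PSI in siQk (vertical axis, %) against mean PSI in siNT (horizontal axis, %) for the frame-shifting longer exons (1 that rose is not drawn), each point 1 exon (n = 3 samples per mean); dotted lines mark the PSI bounds of 10 and 90 used to choose them. The 11 drawn exons that rose lie above the diagonal and the 9 that fell below it, and most of the 2114 not called lie close to it.

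Most members stayed close to their control inclusion. The median difference (siQk minus siNT) was 0.63 points. It was 0.805 in frame-keeping longer exons of the same PSI range and 0.04 over all exons tested. The median absolute difference was 3.32 points, beside 3.73 in those frame-keeping exons. In 1423 members (66.7%) the means lay within 5 points. For 687 (32.2%) the 95% interval of the change in the inclusion odds lay wholly between 0.5-fold and 2-fold; for the others this depth and spread leave larger changes possible. At an unadjusted p under 0.05 there were 177 members (8.29%), against 9.04% of all exons tested. A difference of 15 or more points was seen in 107 members, and 19 of these were called. The 88 others had a median of 18.5 reads in their shallowest sample, against 96 in the 21 called members, and a median larger group SD of 10.6 points against 5.78. In each of the 21 called members the siNT and siQk values did not overlap, which the call itself makes likely. The share of all members or of all exons tested without overlap is not given here, so this adds no support to the calls.

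**Figure D3:**
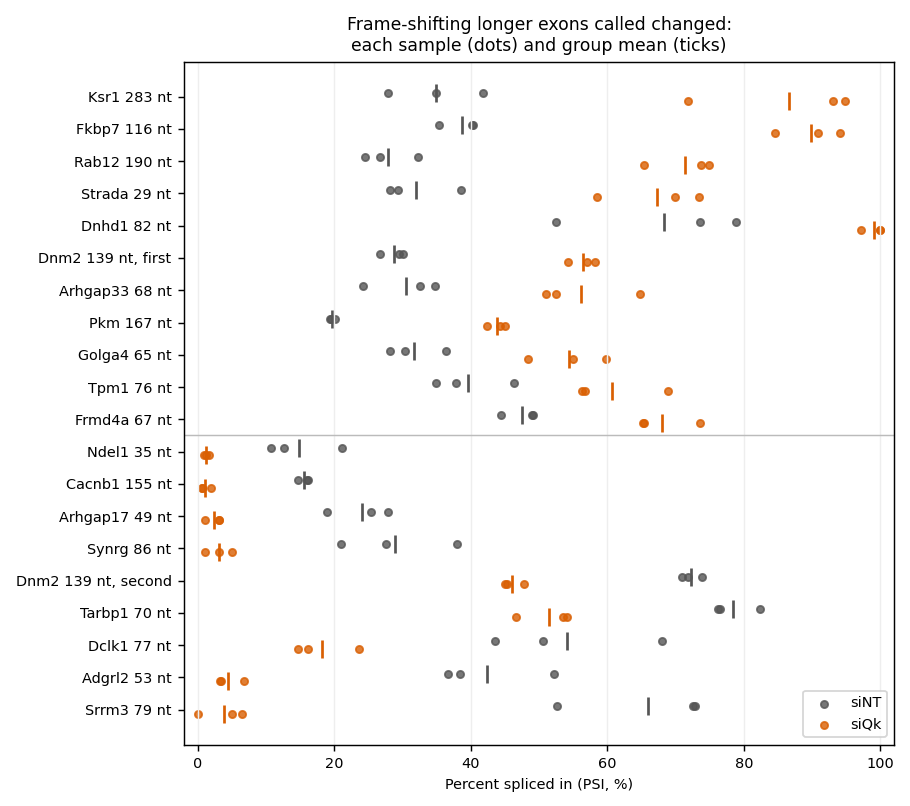
PSI (%, horizontal axis) of 20 of the 21 called exons in each siNT (grey) and siQk (orange) sample, with group means as ticks; exons above the line rose and those below fell. No siQk value overlaps the siNT values of the same exon, which the call itself makes likely. The values of each group lie close together for Pkm and the Dnm2 pair.

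The most precisely measured change was in Pkm, which encodes the glycolytic enzyme pyruvate kinase and has a muscle- and brain-type form (M1) and a form of proliferating cells (M2). The 167 nt member is the first exon of the pair, the one used in the M1 form. Its PSI was 20.1, 19.4 and 19.3 in siNT and 45.0, 44.3 and 42.4 in siQk, each from 9947 or more reads. The mean rose from 19.6% ± 0.416 to 43.9% ± 1.35 (SD, n = 3), by 1.68 ± 0.08 (SE) in log2 odds (adjusted p = 4.21e-06). The second Pkm exon was not analysed here.

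Both Dnm2 exons changed, in opposite directions. Dynamin 2 is the broadly expressed GTPase that cuts endocytic vesicles from the membrane. The first exon had PSI 29.4, 30.1 and 26.8 in siNT and 54.3, 56.9 and 58.2 in siQk, and rose from 28.8% ± 1.77 to 56.5% ± 1.99 (adjusted p = 0.00177). The second had 70.9, 71.8 and 73.9 in siNT and 45.1, 47.8 and 45.3 in siQk, and fell from 72.2% ± 1.53 to 46.0% ± 1.5 (adjusted p = 0.00136). Their mean PSIs added to 100.97 in siNT and 102.5 in siQk. Skipping either exon alone would give an early stop, and having either keeps the frame.

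Tpm1 encodes an actin-binding tropomyosin of the cytoskeleton. Its first 76 nt exon had PSI 46.3, 34.8 and 37.8 in siNT and 68.9, 56.3 and 56.7 in siQk, and rose from 39.6% ± 5.96 to 60.6% ± 7.17 (adjusted p = 0.0427). Its second exon had 53.6, 63.0 and 63.2 in siNT and 34.5, 47.6 and 48.3 in siQk; the means of 59.96% ± 5.49 and 43.5% ± 7.78 did not differ past the threshold (adjusted p = 0.138). The call for the first exon was kept without siNT 1 and lost without any other single sample.

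Among pairs in which both exons are members, calls came from 2 genes. The annotation holds 13 pairs in which both exons are members and no transcript has both, and in each the 2 lengths leave the same frame. Of these 7 are of equal length, in Adam23, Atp8a1, Dnm1, Dnm2, Mapk14, P4ha1 and Tpm1, with 48.8% to 71.9% identical positions. Of the 26 exons in these pairs 3 were called (11.5%, against 0.984% of all members), both of Dnm2 and the first of Tpm1. The exons of a pair can share reads and are not independent, and the pairs were looked for with these calls known. The MAP kinase gene Mapk14 (p38 alpha) had a first 80 nt exon at 67.2% ± 2.43 in siNT and 67.7% ± 2.48 in siQk (95% interval of the change in log2 odds, -0.41 to 0.48). Dnm1, the neuronal relative of Dnm2, has a first 139 nt exon of 71.9% identity to its partner that stood at 87.9% ± 0.370 and 88.7% ± 1.08 (interval -0.48 to 0.68). Its second exon stood at 10.8% ± 0.592 and 9.73% ± 0.503, with groups that did not overlap but an adjusted p of 0.934 (limma).

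**Figure D4:**
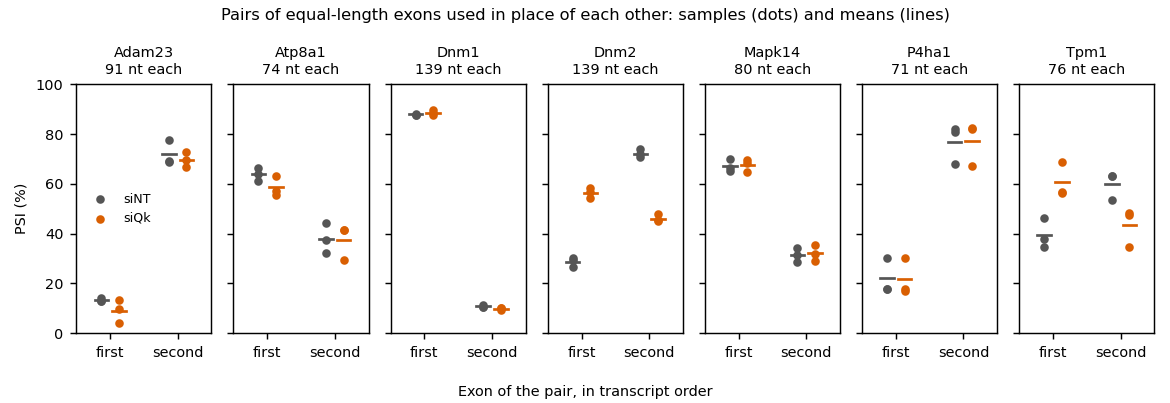
PSI (%, vertical axis) of the first and the second exon of the 7 equal-length pairs in each siNT (grey) and siQk (orange) sample, with means as lines. The Dnm2 exons cross over between the groups, the Tpm1 exons move in opposite directions (the second one not past the threshold), and the Mapk14 and P4ha1 exons overlap between groups.

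In P4ha1, which encodes a collagen prolyl hydroxylase subunit, samples of the same replicate number were alike in the 2 groups. The first 71 nt exon was at 30.3, 17.95 and 17.7 in siNT 1 to 3 and at 30.3, 17.8 and 16.9 in siQk 1 to 3, so replicate 1 stood apart in both groups and the group means (21.98% and 21.65%) did not. The 134 nt exon of the enolase gene Eno2 likewise had its lowest values in siNT 1 (73.8) and siQk 1 (74.1).

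Of pairs of unequal length, Ogdh (2-oxoglutarate dehydrogenase, a mitochondrial enzyme) had exons of 91 and 103 nt. The first was at 38.4% ± 1.69 in siNT and 45.7% ± 0.159 in siQk, the second at 61.1% ± 0.0557 and 53.7% ± 2.03, neither past the threshold (adjusted p = 0.324 and 0.304). In the chromatin remodeller gene Pbrm1 the first exon, of 140 nt and in the 5′ untranslated region, went from 70.4% ± 3.12 to 54.7% ± 2.96 (limma adjusted p = 0.115). The second, of 104 nt, was also lower, at 30.2% ± 0.895 and 24.6% ± 1.20 (limma adjusted p = 0.746). Mean PSIs of the 2 exons added to 100.6 in siNT and 79.3 in siQk, so they did not trade places.

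Several called members are paired in the annotation with an exon that is no member, and no transcript holds both. Cacnb1 encodes a calcium channel beta subunit, and its 155 nt coding exon fell from 15.6% ± 0.819 to 1.01% ± 0.771 (adjusted p = 0.00705) while its 20 nt partner rose from 79.6% ± 5.69 to 99.2% ± 1.38 (adjusted p = 0.0184). The Cacnb1 call was lost without any single siNT sample. Adgrl2 encodes the adhesion receptor latrophilin 2. Its 53 nt exon had PSI 52.2, 36.7 and 38.4 in siNT and 6.72, 3.32 and 3.31 in siQk, falling from 42.4% ± 8.47 to 4.45% ± 1.97 (adjusted p = 0.00191). Its 129 nt partner had PSI 10.3, 10.6 and 11.2 in siNT and 71.6, 73.6 and 77.3 in siQk, the opposite direction. These 2 lengths do not leave the same frame. Means of the 129 and 53 nt exons, 10.7% and 42.4% in siNT and 74.2% and 4.45% in siQk, do not account for all transcripts. Skipping the 53 nt exon moves the stop codon without making it early.

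The largest fall was in Srrm3, an activator of neural microexons. A 79 nt exon at chr5:135869720-135869798 that overlaps no annotated exon had PSI 52.6, 72.5 and 72.9 in siNT and 0, 4.98 and 6.53 in siQk. The mean fell by 62.2 points, from 66.0% ± 11.6 to 3.84% ± 3.41 (adjusted p = 0.00629), and the call was lost without siNT 2. In the doublecortin-like kinase gene Dclk1 a 77 nt exon with unannotated ends had 50.6, 67.9 and 43.5 in siNT and 14.7, 23.6 and 16.2 in siQk. It fell from 54.0% ± 12.6 to 18.2% ± 4.74 (adjusted p = 0.0148), a call lost without siNT 1, siNT 2 or siQk 3.

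Tarbp1 encodes an RNA methyltransferase of the SpoU type. Its 70 nt coding exon had PSI 76.5, 82.4 and 76.2 in siNT and 54.1, 46.7 and 53.5 in siQk, and fell from 78.3% ± 3.52 to 51.4% ± 4.13 (adjusted p = 0.0173). Skipping it brings an early stop. The call held only without siQk 1 among the fits that leave out a sample. Synrg, which encodes a partner of the AP-1 clathrin adaptor, had an 86 nt exon at 21.01, 27.6 and 38.0 in siNT and 1.11, 3.05 and 5.04 in siQk, with as few as 16 reads. It fell from 28.9% ± 8.58 to 3.07% ± 1.97 (adjusted p = 0.0490), which no fit with a sample left out kept. A neighbouring 38 nt exon of Synrg was at 29.1% ± 8.23 and 2.22% ± 1.92 (adjusted p = 0.0545).

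The remaining falls were in shorter exons. Arhgap17 had a 49 nt exon annotated as partly coding; it fell from 24.1% ± 4.57 to 2.41% ± 1.22 (adjusted p = 0.00592). Ndel1, a regulator of the motor dynein, had a 35 nt exon seen only in non-coding transcripts, which fell from 14.8% ± 5.57 to 1.22% ± 0.319 (adjusted p = 0.00111). The calls of Adgrl2, Arhgap17, Ndel1, Pkm, Rab12 and both Dnm2 exons, 7 of the 21, were kept in each of the 6 fits that leave out a sample.

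Inclusion was read as an early stop in 3 of the exons that rose, in Rab12, Fkbp7 and Strada. Rab12 encodes a small GTPase of endosomal traffic. Its 190 nt exon, found only in non-coding transcripts, had PSI 24.5, 26.8 and 32.2 in siNT and 65.3, 73.7 and 74.9 in siQk, and rose from 27.8% ± 3.99 to 71.3% ± 5.22 (adjusted p = 0.000496). The stop inside it lies 430 nt before the last junction. Fkbp7 encodes a prolyl isomerase of the endoplasmic reticulum. Its 116 nt exon, found only in decay-target transcripts, had 40.4, 35.4 and 40.2 in siNT and 90.9, 84.6 and 94.0 in siQk, the last group from as few as 12 reads. It rose from 38.7% ± 2.84 to 89.9% ± 4.79 (adjusted p = 0.0097), a call lost without any single siNT sample. This Fkbp7 exon was among the called ones marked as having unbalanced junction reads. Of the 142 members for which only inclusion could be followed, with an early stop, 2 passed (1.41%), those of Rab12 and Fkbp7. Of the 770 whose skipping gives an early stop 7 did (0.909%), 4 up and 3 down. These shares stand beside 1.18% of all exons tested and 3.01% of exons of any length in the same PSI range. Their differences were not tested.

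Strada encodes a pseudokinase that activates the kinase LKB1. Its 29 nt coding exon had PSI 38.5, 29.4 and 28.1 in siNT and 73.5, 69.9 and 58.4 in siQk, and rose from 32.0% ± 5.69 to 67.3% ± 7.85 (adjusted p = 0.0106); the call was lost without siNT 2, siNT 3 or siQk 2. A 58 nt coding member next to it was at 50.9, 41.4 and 39.0 in siNT and 79.8, 60.7 and 57.9 in siQk. Its means of 43.8% ± 6.30 and 66.1% ± 11.9 did not differ past the threshold (adjusted p = 0.214). By the annotation, skipping the 29 nt exon alone gives a stop 1012 nt before the last junction, and including it alone gives one 992 nt before it. Together the 29 and 58 nt exons add 87 nt, a multiple of 3.

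Members of 123 of the 1552 genes had such neighbours. In these, 177 pairs of members follow each other directly in a coding transcript, and in 100 of these the summed length is a multiple of 3. That takes a remainder of 1 in one exon and of 2 in the other, which are about equally frequent among members. The median gap between the control PSIs of 2 neighbours was 3.28 points in those pairs and 3.91 in the other 77. Neighbours can be passed over by the same junction reads, so they are not independent measurements.

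Among further rises, the MAP kinase scaffold gene Ksr1 had a 283 nt exon with unannotated ends at 27.9, 34.8 and 41.8 in siNT and 93.1, 94.9 and 71.8 in siQk. Its means were 34.9% ± 6.97 and 86.6% ± 12.8 (adjusted p = 0.0171), and the call was lost without any single siNT sample or siQk 2. This exon was among the called ones marked as having unbalanced junction reads.

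Dnhd1, related to dynein heavy chains, had an 82 nt exon with unannotated ends at 52.5, 73.5 and 78.9 in siNT and 100.0, 100.0 and 97.2 in siQk. It rose from 68.3% ± 14 to 99.1% ± 1.64 (adjusted p = 0.0201), a call lost without any single siNT sample. Arhgap33 had a 68 nt exon in no annotated exon, which rose from 30.5% ± 5.6 to 56.1% ± 7.53 (adjusted p = 0.0345) and was called in no fit with a sample left out. Golga4, a golgin of the trans-Golgi network, had a 65 nt exon that rose from 31.6% ± 4.19 to 54.4% ± 5.78 (adjusted p = 0.0251). Its stop, marked in the sequences, lies 35 nt before the last junction and so is not early. Frmd4a, a scaffold of cell polarity, had a 67 nt exon that rose from 47.5% ± 2.66 to 68.0% ± 4.79 (adjusted p = 0.0118). The Golga4 call was kept without siNT 1 or siQk 2 only, and the Frmd4a call was lost without siNT 2 or siNT 3.

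Read by place, the 21 calls were 8 of 978 coding exons (0.818%; 4 up, 4 down), 6 of 422 with unannotated ends (1.42%; 4 up, 2 down), and 7 spread over the remaining classes, beside 0.984% of all members. In the 5′ untranslated regions 0 of 247 members were called by limma on log odds, with 20 at an unadjusted p under 0.05 and 3 by limma on PSI. Over all members 8.29% had an unadjusted p under 0.05.

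The 5 members with the most reads differed in spread. Besides Pkm they were a 95 nt exon of Slc16a3, a 77 nt exon of Raly and 2 exons of Eno2. The exon of Slc16a3, a lactate transporter gene, lies in its 5′ untranslated region and was at 69.5% ± 2.66 and 60.1% ± 4.51 (adjusted p = 0.118). That of Raly, which encodes an RNA-binding protein of the hnRNP family, was at 46.8% ± 1.28 and 45.8% ± 2.57 (interval of the change in log2 odds, -0.33 to 0.21). The 223 nt exon of Eno2 was at 83.4% ± 4.60 and 86.7% ± 7.21, and the 134 nt exon at 80.2% ± 5.6 and 83.5% ± 8.17, wider than the median member's SDs of 4.30 and 4.76 points.

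Members were unevenly spread over genes. While 1189 genes held 1 member, 12 genes held 5 or more, 128 in all. Some of these formed runs with similar PSI, whereas the 11 members of Dnhd1 had control PSI from 17.7 to 88.1. Birc6, which encodes a giant inhibitor of apoptosis with ubiquitin ligase activity, held 32 over 80.7 kb, with control PSI from 20.7 to 51.3 and siQk PSI from 19.2 to 47.4. Tln2, a talin that links integrins to actin, held 20, and in all 20 the siQk mean was higher, by 0.97 to 7.29 points, with none called. Asap1, an Arf GTPase-activating protein, held 11 at 12.0 to 82.5 in siNT, and Prkdc, the DNA-dependent protein kinase, held 10 at 82.5 to 89.0. In Prkdc the siQk mean was lower in all 10, with differences from -6.77 to -0.84 points and none called. Members of such a run can share exclusion reads and are not independent; how many reads they share was not counted.

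**Figure D5:**
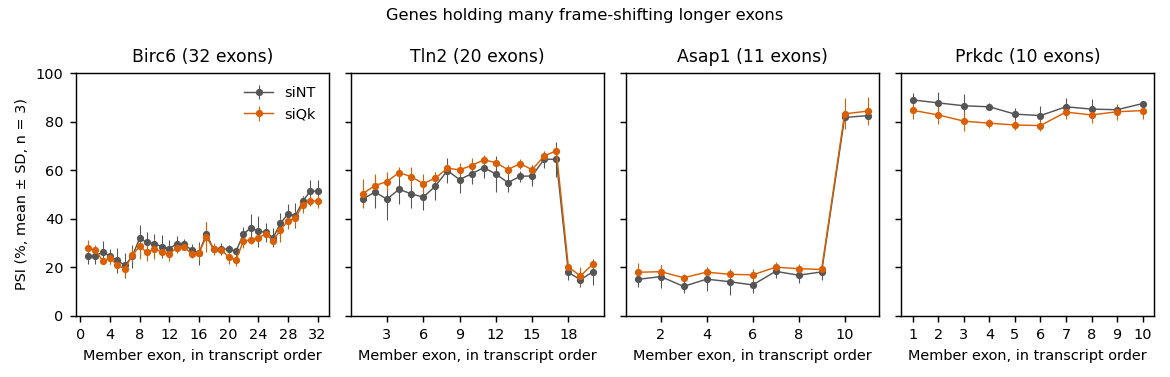
PSI (%, mean ± SD, n = 3) of member exons of Birc6, Tln2, Asap1 and Prkdc in transcript order, in siNT (grey) and siQk (orange). Neighbouring exons have similar PSI over long runs, with a step in Tln2 and in Asap1, and the 2 groups lie within a few points of each other.

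By gene function, 9 lists held 190 members in 125 genes, of which 7 members were called (3.68%, against 0.984% of all members). The lists were chosen with earlier results known, so this share is a description. Of 31 members in endocytosis and vesicle traffic genes, 2 rose (Dnm2, Golga4) and 1 fell (Dnm2), 9.68% in all; the median difference was 1.87 points. Of 24 in kinase and GTPase signalling genes, 1 rose (Ksr1) and 1 fell (Arhgap17), with a median of 0.35. Of 22 in cytoskeleton and adhesion genes 1 rose (Tpm1), and of 12 in SR proteins and relatives 1 fell (Srrm3), with medians of 1.10 and 0.58. These stand beside a median of 0.63 over all members.

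The other 5 lists, hnRNPs and other RNA-binding regulators (25 members), spliceosome (10), RNA decay and surveillance (18), chromatin (24) and cell cycle and genome maintenance (24), held no call by limma on log odds. Over their members, 8 had an unadjusted p under 0.05 and 1 were called by limma on PSI. The nearest were a 53 nt exon of Mbnl2, a muscleblind splicing regulator, at 86.1% ± 3.45 and 73.0% ± 1.48 (adjusted p = 0.0835), and a 164 nt exon of the chromatin gene Phf21a at 31.5% ± 2.42 and 14.7% ± 3.72 (adjusted p = 0.156).

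Host genes were compared by the summed reads of their exon events in CPM, a stand-in for expression. Of 10851 genes tested 457 passed adjusted p under 0.05 (4.21%), and of the 1552 host genes 56 did (3.61%), 36 higher and 20 lower in siQk. That count was 6 to 125 when a sample was left out: 19, 8 and 14 without siNT 1, 2 and 3, and 125, 7 and 6 without siQk 1, 2 and 3. With no filter on low coverage it was 4. Of the 20 genes with a called exon, 4 passed. Arhgap33 fell from 152.5 ± 10.2 to 82.8 ± 8.03 CPM (log2 change -0.88, adjusted p = 0.00522), and this call was kept in each fit that left out a sample. Rab12 fell from 38.0 ± 6.64 to 22.8 ± 2.15 (log2 change -0.71, adjusted p = 0.0299; -0.79 without reads of member exons).

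Dclk1 rose from 35.8 ± 3.42 to 57.0 ± 4.09 CPM (log2 change 0.67, adjusted p = 0.0156), and Cacnb1 from 52.0 ± 5.89 to 74.8 ± 1.48 (0.53, adjusted p = 0.0286). The calls of Rab12 and Cacnb1 were lost without any sample except siQk 1, and that of Dclk1 without siNT 2, siQk 2 or siQk 3. Fkbp7 was at 3.66 ± 0.743 and 1.99 ± 0.472 CPM (adjusted p = 0.0762) and Tarbp1 at 85.9 ± 4.35 and 60.2 ± 13.1 (adjusted p = 0.0749). Pkm was at 497.4 ± 75.7 and 676.7 ± 114.2; its log2 change of 0.44 was 0.09 without the reads of the member exon. Changed splicing and changed stability of a transcript cannot be told apart in these sums.

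Of the 9 members of 28 or 29 nt, 4 have a value in the neuron comparison, whose 2 PSI columns are read here in the order in which its title names the groups. In the authors' deposited table the Strada exon was at 91.5% in untreated and 77.8% in cycloheximide-treated neurons, 13.7 points lower, with a probability of a difference of 1.0. Its level in untreated neurons was above that of both N2A groups, though the 2 tables were made separately. Of 2469 exons in the authors' deposited table, 232 (9.4%) reached a probability of 0.9 with 10 or more points. The 28 nt exon of Snph, which encodes the mitochondrial anchor syntaphilin, was at 14.6% and 9.92% in the authors' deposited table (probability 0.844). In N2A cells it was at 10.2% ± 2.80 in siNT and 22.5% ± 1.52 in siQk (adjusted p = 0.673). A 28 nt exon of Nktr, a cyclophilin-related gene, was at 11.7% and 55.2% in the authors' deposited table but with a probability of 0.667, and that of Prpf40b, a splicing factor gene, at 99.5% and 99.8%.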

How the data were processed

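The deposited inclusion table gives PSI in percent for each N2A sample and, per the file headers, a quality cell from which inclusion and exclusion reads were taken. The genome build is mm10 per the submitters' processing notes; the aligner and the splicing caller are not given in the sources used here. The neuron table holds the authors' PSI as a fraction per condition, with their probability of a difference as a fraction; PSI is printed here in percent.

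From the reads, log2 of the inclusion to exclusion ratio with 0.5 added was compared by limma 3.58.1 (R 4.3.3), with robust empirical Bayes and a variance trend. The fit took 12929 cassette exons with 10 or more reads in each of the 6 samples and a mean PSI from 2 to 98. Benjamini-Hochberg adjustment covered all of them, and a call needed adjusted p under 0.05 and 10 points. Standard deviations are over PSI. Host genes were compared as log2(CPM + 0.5), for genes with a mean of 20 or more reads. Both fits were also run on simulated data that gave every exon, or every gene, the same spread between samples beyond read sampling. Those runs do not measure how reliable the calls are in these data.

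Replicate pairs differed by 1.55 to 3.67 times the variance expected from read sampling. The siNT values chose the members and also enter each difference. The members and gene lists were chosen with earlier results of these data known. The text names the called members, members of the gene lists among them, the 5 with the most reads and those at the thresholds, apart from a few not reported here; other names were chosen after their values were seen. Frames were read from GENCODE M21.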

Additional observations from a re-analysis of the deposited data

How the results depend on the processing

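The 21 called exons numbered 2 with plain empirical Bayes without a trend (0 up, 2 down), 13 with unbalanced exons left out (4 down) and 107 when a shift of 15 points alone was asked for (65 up, 42 down). With limma on PSI 23 were called, but only 13 of the 21 kept the call. Without a filter on mean PSI 14 fell against 9. Leaving out 1 sample gave 8 to 21 calls, 4 to 12 of them up and 4 to 9 down. The 56 host genes numbered 4 with no filter on low coverage and 6 to 125 with a sample left out. Some of these fits held fewer exons or samples, and the cause of the shifts was not tested. No direction reversed. Samples of the same replicate number in the 2 groups had correlations of their deviations of 0.139, 0.0193 and 0.116. Those of unlike number ran from -0.147 to 0.0454, and siQk 2 correlated best with siNT 3 (0.0454). Whether the numbers pair the samples is thus unsettled, and the main fit did not pair them. With the replicate block 25 member exons were called, 20 of the 21 among them, and 152 host genes. The planned search for intron motifs near the exons was not run. Depth limits exons with few reads: the median member had 63 reads in its shallowest sample.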
